A study of Rattus norvegicus with 64 samples.

Results

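The oligodendrocyte lineage and myelin genes described here are 40 genes that were chosen by name, from the receptors of the precursor cell to the proteins of the finished sheath. Of 41 listed names, 40 were found among the 17260 genes of the count tables, and Gjc3 was not used here. They comprise 2 precursor genes, 6 transcription factors, 3 genes of the premyelinating cell, 18 genes for myelin and membrane proteins, the gap junction gene Gjb1, 9 genes for enzymes and secreted proteins, and Plekhh1. All 40 were among the 12521 genes kept by the filter on low counts, several of them through their counts at P23 and P45 alone.

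Total RNA depleted of ribosomal RNA was sequenced from the medial and the lateral entorhinal cortex (MEC and LEC) of Long Evans rats at 4 postnatal ages (days P2, P9, P23, and P45), with no treatment or genetic change named in the labels. Layer II (LII) and the layers below it taken as 1 piece (layers III to VI, LDeep) were dissected by hand under a microscope from horizontal slices. The 16 combinations of region, layer, and age made 64 libraries, and the number of replicates in each was 5 (P2), 4 (P9), 3 (P23), or 4 (P45). The comparisons ask how expression changed with age, between the layers, and between the regions.

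Oligodendrocytes arise from dividing precursor cells, which carry the growth factor receptor encoded by Pdgfra and the proteoglycan encoded by Cspg4. Precursors leave the cell cycle, pass through a short premyelinating stage marked by genes such as Gpr17, Enpp6, and Bcas1, and then wrap axons with membrane held together by proteins such as those of Mbp, Mog, Mag, and Mobp. Olig1, Olig2, and Sox10 encode transcription factors of the whole lineage, and Myrf encodes a factor that turns on myelin genes. In the rodent forebrain most myelin is laid down after birth, and the deep cortical layers carry more of it than the superficial ones.

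Between 3894334 and 11439143 read pairs per library were counted on genes, so that 1 count stood for 0.0874 to 0.257 CPM (counts per 1000000 counted pairs). Markers of layer II neurons summed to 718 to 1288 CPM (median 819.9) in LII and to 195 to 487 CPM (median 293) in LDeep at P23, and markers of deep-layer neurons to 62.5 to 70.95 CPM (median 65.98) and 172 to 337 CPM (median 265). The 2 libraries of MEC P2 replicate 1 differed from the others in 5 markers of meningeal fibroblasts, which summed to 17.5 CPM in LII and 686 CPM in LDeep, against 32.97 to 833 and 42.3 to 84.8 CPM in the other MEC replicates of P2. Their deep-layer neuron markers (105 and 239.7 CPM) were higher in LDeep, as in the other P2 libraries. Their layer II neuron markers were at 688 CPM in LII and 775 CPM in LDeep, although LII was above LDeep in all other P2 pairs. The library LEC LII P9 replicate 2 held 348 CPM of Mbp and 39.5 CPM of Mobp, against at most 76.6 and 0.202 CPM in the 15 other libraries of P9. In bulk tissue, fewer cells of a type and less RNA per cell cannot be told apart.

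The 40 genes together took 0.0725% to 0.0813% of the counted pairs at P2 (means of the 4 region and layer groups) and 0.109% to 0.123% at P9. At P23 they took 1.15% in MEC LDeep, 0.467% in LEC LDeep, 0.424% in MEC LII, and 0.227% in LEC LII. At P45 the same groups were at 0.8404%, 0.352%, 0.426%, and 0.1900%. Mbp, which encodes the myelin basic protein that binds the inner faces of the sheath together, made up 5.30% and 5.91% of the counts of the 40 genes at the 2 younger ages, and 41.1% (P23) and 39.9% (P45) at the 2 older ones.

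**Figure D1:**
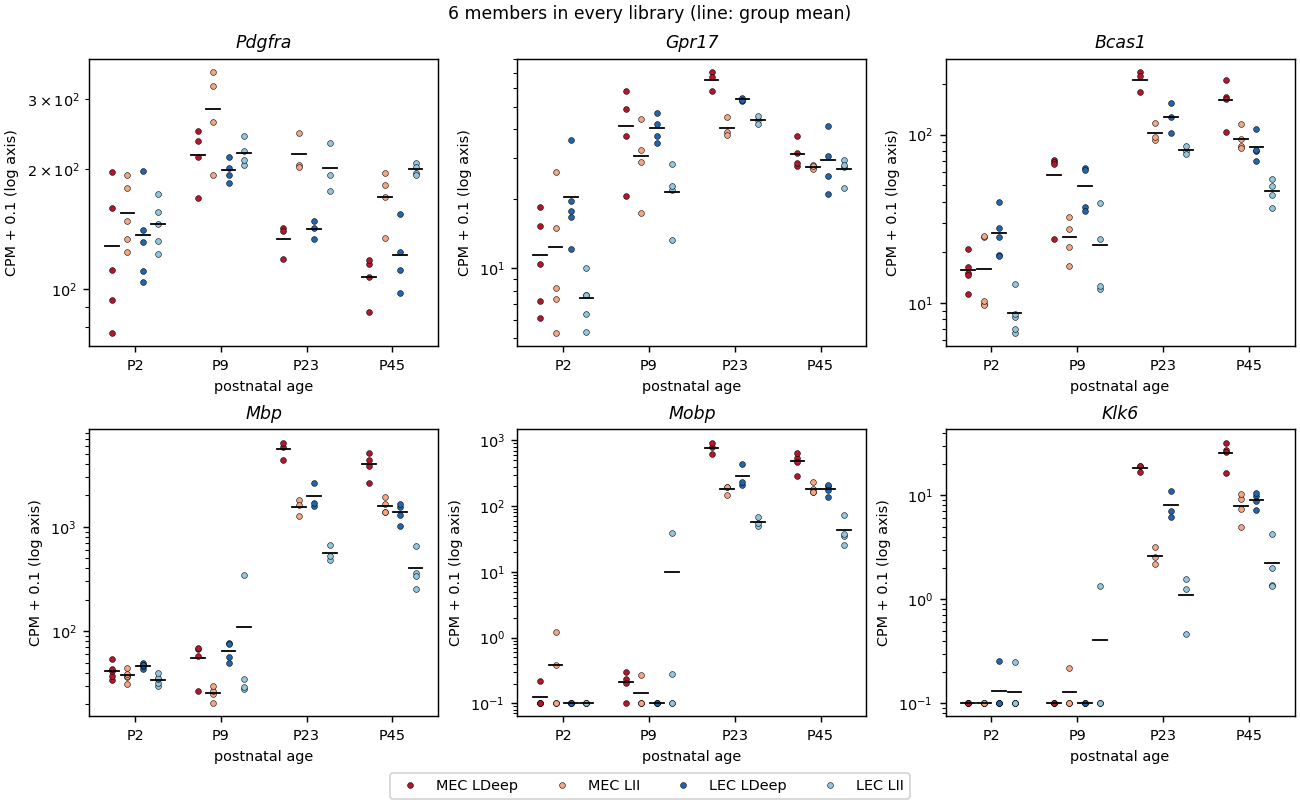
Values of 6 members in every library, as CPM plus 0.1 on a log axis against age, with 1 point per library and a line at each group mean. Pdgfra ranged from 77.4 to 351 CPM over all ages, whereas Mobp was at 0 in 17 of 20 libraries at P2 and reached 928 CPM at P23, with MEC LDeep highest.

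From P2 to P9, genes of the precursor and of the premyelinating cell were among those that rose, and most genes for myelin and membrane proteins did not pass. With log2 fold changes (LFC, later minus earlier age, regions and layers weighted equally) and the quasi-likelihood test of edgeR at a Benjamini-Hochberg adjusted p below 0.05, 22 of the 40 genes rose and 0 fell, where 31.6% of all tested genes rose and 31.8% fell. At an unadjusted p below 0.05, 23 members differed. Both precursor genes, 4 of 6 transcription factors, all 3 premyelinating genes, 7 of 18 myelin and membrane genes, Gjb1, and 5 of 9 enzymes and secreted proteins rose. The median LFC of the members was 0.61, or 0.65 when 5 genes with a group at 0 counts were entered by the ratio of their mean CPM, beside a median of -0.005 over all genes.

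Pdgfra (chr14:35527926-35581031 on rn6, minus strand), the receptor through which platelet-derived growth factor drives precursor division, had a lowest, median, and highest level of 77.4, 137 and 198 CPM in the 20 libraries of P2. In the 16 libraries of P9 the same values, in that order here and in what follows, were 169, 214 and 351 CPM (LFC 0.69 ± 0.09 (SE), adjusted p = 1.95e-09). Cspg4 (chr8:61532465-61567510, plus strand), the NG2 proteoglycan of the precursor surface, was at 30.1, 48.6 and 116 CPM and then 48.4, 71.1 and 119 CPM (LFC 0.47 ± 0.14, adjusted p = 0.00338). The libraries of the 2 ages overlapped for both genes, although the medians were higher at P9. Olig2, needed to specify the lineage, stood at 12.5, 29.9 and 57.9 CPM and 18.2, 31.8 and 41.8 CPM (LFC 0.11 ± 0.10, adjusted p = 0.323). Sox10, which acts throughout the lineage, was at 5.79, 13.1 and 28.7 and 14.2, 21.8 and 36.5 CPM (LFC 0.77 ± 0.12, adjusted p = 1.61e-07). Sox10 thus rose, whereas the P9 range of Olig2 lay within its P2 range.

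Gpr17, an orphan receptor of cells that have just left the precursor state, went from 5.16, 10.2 and 35.8 CPM to 13.2, 33.5 and 58.2 CPM (LFC 1.43 ± 0.15, adjusted p = 9.31e-12). Bcas1, a marker of early myelinating cells, went from 6.54, 14.8 and 39.9 to 11.9, 33.6 and 70.96 CPM (LFC 1.20 ± 0.15, adjusted p = 7.21e-10). Enpp6, a choline phosphodiesterase of newly formed oligodendrocytes, was near the counting limit, at 0, 0.135 and 1.29 CPM at P2 and 0, 0.729 and 2.31 CPM at P9 (LFC 1.52 ± 0.51, adjusted p = 0.00835). Without LEC LII P9 replicate 2 this last difference did not pass (LFC 0.99, adjusted p = 0.0784), nor did Nkx2-2 (LFC 0.52, adjusted p = 0.0594).

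The 3 members of largest LFC among those that rose were Fa2h, which hydroxylates the fatty acids of myelin lipids, Ninj2, which encodes an adhesion protein, and Cmtm5, which encodes a membrane protein. Fa2h went from 0, 0.189 and 1.54 to 0.141, 1.37 and 4.17 CPM (LFC 2.49 ± 0.38, adjusted p = 1.08e-07). Ninj2 went from 0, 0.172 and 0.772 to 0.331, 0.981 and 2.801 CPM (LFC 2.42 ± 0.26, adjusted p = 1.24e-11). Cmtm5 went from 2.85, 5.21 and 11.5 to 8.75, 15.6 and 30.03 CPM (LFC 1.52 ± 0.11, adjusted p = 3.42e-17). Fa2h and Ninj2 were still at a few CPM in their highest library of P9. Mbp was at 29.9, 39.1 and 53.4 CPM at P2 and 20.2, 42.05 and 348 CPM at P9 (LFC 0.50 ± 0.19, adjusted p = 0.0195). This call was lost without LEC LII P9 replicate 2 (LFC 0.03, adjusted p = 0.827). Without both libraries of MEC P2 replicate 1, Cldn11 (LFC 1.57, adjusted p = 2.32e-04) and Sirt2 (LFC 0.20, adjusted p = 0.00705) also rose.

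From P9 to P23, 34 of the 40 genes rose and 2 fell (all genes: 32.5% rose and 32.1% fell), with a median LFC of 1.96 beside 0.006 over all genes. All 18 myelin and membrane genes rose (median LFC 3.95), as did 8 of 9 enzymes and secreted proteins (median 2.73), all 3 premyelinating genes, Gjb1, Plekhh1, and 3 of 6 transcription factors. Pdgfra (LFC -0.42 ± 0.10, adjusted p = 3.01e-04) and Qdpr (LFC -0.41 ± 0.07, adjusted p = 2.87e-06), which encodes an enzyme of tetrahydrobiopterin recycling, fell. Cspg4 (LFC -0.24 ± 0.16, adjusted p = 0.189), Olig1 (LFC 0.08 ± 0.12, adjusted p = 0.583), Olig2 (LFC -0.13 ± 0.11, adjusted p = 0.322), and Nkx2-2 (LFC 0.04 ± 0.26, adjusted p = 0.911) did not pass.

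Mbp (chr18:79326738-79437310, plus strand) rose to 479.6, 1655 and 6429.9 CPM in the 12 libraries of P23 (LFC 4.97 ± 0.23, adjusted p = 1.78e-25), with mean CPM 37.9-fold that of P9. Mog (chr20:2004052-2014284), which encodes a protein of the outermost myelin layer, was at 0, 0.282 and 7.43 CPM at P9 and 12.4, 52.8 and 213 CPM at P23 (LFC 6.73 ± 0.27, adjusted p = 2.47e-28). Mag (chr1:89345419-89360733, minus strand), which encodes the glycoprotein of the membrane next to the axon, was at 3.67, 5.69 and 26.9 and 30.5, 129 and 488 CPM (LFC 4.13 ± 0.22, adjusted p = 1.55e-23). Every library of P23 was above every library of P9 for these 3 genes. The gene Mog overlaps Zfp57 on the other strand, and the counting used strand.

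Mobp (chr8:128824508-128850360, plus strand), which encodes a basic protein of compact myelin, had 0 counts in 10 of the 16 libraries of P9 and 50.2, 205 and 928 CPM at P23. Its mean CPM was 129-fold that of P9, and 6176-fold without LEC LII P9 replicate 2, where the 15 other libraries held 6 counts together. Mal, which encodes a lipid raft protein of the sheath, was at 0, 0.318 and 10.6 CPM at P9 and 57.9, 225 and 902 CPM at P23, 341-fold higher in mean CPM, and 943-fold without that library. Opalin (chr1:260324028-260341677, minus strand), a glycoprotein gene of late oligodendrocytes, had counts in 1 of 16 libraries at P9, the same LEC LII library, and 7.29, 25.8 and 111 CPM at P23. The 15 other libraries had 0 counts of Opalin, so that its mean at P23 was at least 1577-fold higher than the limit that 3 counts over these libraries allow. These 3 genes had the largest fitted LFC of all members, and all their libraries at P23 lay above every library of P9.

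Enpp6 (LFC 3.84 ± 0.30, adjusted p = 9.02e-17), Bcas1 (LFC 1.79 ± 0.16, adjusted p = 1.45e-14), Myrf (LFC 1.65 ± 0.23, adjusted p = 8.69e-09), Sox10 (LFC 0.55 ± 0.13, adjusted p = 2.30e-04), and Gpr17 (LFC 0.62 ± 0.16, adjusted p = 7.88e-04) rose with a smaller LFC than the myelin genes above. Myrf was at 3.39, 6.34 and 12.4 CPM at P9 and 7.45, 20.6 and 44.7 CPM at P23, with overlapping libraries. Adamts4, a secreted metalloprotease of the lineage, rose from 0.438, 1.24 and 3.71 to 4.56, 14.96 and 53.8 CPM (LFC 3.57 ± 0.21, adjusted p = 2.85e-21), without overlap. Nkx6-2, a homeodomain factor of oligodendrocytes, was at 0, 0 and 0.563 CPM and then 1.46, 4.03 and 15.3 CPM, also without overlap, and Klk6, a secreted serine protease, had 0 counts in 14 libraries of P9 and 0.365, 4.55 and 19.2 CPM at P23, with overlap.

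At equal transcript length, as RPKM (CPM per kilobase of exon), Mbp had the highest level of the 40 genes at P23 (mean over groups 713 RPKM), followed by Cnp (220.2), Mal (145), Cldn11 (114), and Sirt2 (104 RPKM). At P45 the order began with Mbp (544), Cnp (152), Tf (117), Mal (111), and Car2 (96.5 RPKM). Cnp encodes a phosphodiesterase that keeps cytoplasmic channels in myelin open, Cldn11 the tight junction protein of the sheath, and Tf the iron carrier transferrin.

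Because the myelin genes rose together, the 250 bases before their start were searched for 3 motifs on both strands, in the promoter sequences of RefSeq (build GRCr8, another build than that of the counts), which held 31 of the 40 genes. The letters CTGGCAC, bound by the factor that Myrf encodes, were in 6 of 31 (19.4%) and in 3.69% of all 27457 promoters. The letters ACAAAG, bound by Sox factors, were in 9 of 31 (29.0%) and in 15.96% of all. The E-box CAGCTG, bound by Olig factors among others, was in 6 of 31 (19.4%) and in 11.9% of all. CTGGCAC was found for Cnp, Hapln2, Mag, Mal, Olig2, and Opalin. Opalin held all 3 motifs, Mag the first 2, and Mobp 8 copies of ACAAAG on the opposite strand, and none was found for Pdgfra. A match of letters is a description and no evidence of binding. The 4 sequences follow, 5′ to 3′ along the gene's strand, with the matches of either strand (GTGCCAG and CTTTGT when reversed) in capitals.
Opalin, chr1:249858191-249858440, minus strand: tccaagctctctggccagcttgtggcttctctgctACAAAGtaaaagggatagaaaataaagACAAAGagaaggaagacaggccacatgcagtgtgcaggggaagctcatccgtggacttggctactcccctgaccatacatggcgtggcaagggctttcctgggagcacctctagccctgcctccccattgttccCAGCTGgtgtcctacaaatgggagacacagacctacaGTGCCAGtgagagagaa
Mag, chr1:95291045-95291294, minus strand: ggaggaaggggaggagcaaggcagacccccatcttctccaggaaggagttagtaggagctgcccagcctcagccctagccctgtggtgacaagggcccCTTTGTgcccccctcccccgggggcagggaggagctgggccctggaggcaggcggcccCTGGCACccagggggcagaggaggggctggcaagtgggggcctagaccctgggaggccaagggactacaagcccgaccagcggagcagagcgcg
Mobp, chr8:128746982-128747231, plus strand: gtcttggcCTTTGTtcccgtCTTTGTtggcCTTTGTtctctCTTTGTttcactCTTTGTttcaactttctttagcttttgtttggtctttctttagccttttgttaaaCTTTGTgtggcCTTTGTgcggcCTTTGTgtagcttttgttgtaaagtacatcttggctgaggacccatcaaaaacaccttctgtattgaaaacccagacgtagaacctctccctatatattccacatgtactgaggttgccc
Pdgfra, chr14:33408517-33408766, minus strand: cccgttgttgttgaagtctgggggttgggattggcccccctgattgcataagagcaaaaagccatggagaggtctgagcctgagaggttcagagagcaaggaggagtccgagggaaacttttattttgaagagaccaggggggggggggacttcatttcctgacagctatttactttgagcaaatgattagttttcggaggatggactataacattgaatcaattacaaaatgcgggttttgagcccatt

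From P23 to P45, 11 of the 40 genes passed, and they moved in both directions. Of these, 4 rose and 7 fell (all genes: 1.99% rose and 1.86% fell), with a median LFC over all members of -0.26 beside 0.011 over all genes. Enpp6 went from 3.56, 9.47 and 23.02 CPM to 1.02, 4.13 and 9.26 CPM in the 16 libraries of P45 (LFC -1.29 ± 0.24, adjusted p = 3.70e-04). Gpr17 went from 37.6, 49.1 and 70.3 to 20.9, 27.7 and 41.00 CPM (LFC -0.80 ± 0.16, adjusted p = 0.00104). The ranges of Gpr17 overlapped only between 37.6 and 41.0 CPM, and those of Enpp6 over a wider stretch. Adamts4 fell from 4.56, 14.96 and 53.8 to 2.53, 6.72 and 19.04 CPM (LFC -0.94 ± 0.18, adjusted p = 5.91e-04). Ugt8, which makes the galactolipids of myelin, fell from 34.8, 97.3 and 349 to 14.7, 66.9 and 178 CPM (LFC -0.80 ± 0.13, adjusted p = 1.55e-05). Tspan2 (LFC -0.56 ± 0.09, adjusted p = 1.47e-05), Cnp (LFC -0.49 ± 0.09, adjusted p = 3.07e-04), and Sirt2, a deacetylase (LFC -0.46 ± 0.09, adjusted p = 3.37e-04), fell as well. In LII alone the falls of Enpp6 (adjusted p = 0.318), Adamts4 (0.412), and Ugt8 (0.194) did not pass. Nor did Enpp6 in the MEC alone (adjusted p = 0.0922) or Adamts4 in the LEC alone (0.110).

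Hapln2, which encodes a link protein of the matrix at nodes of Ranvier, rose from 0.7297, 4.98 and 21.5 to 1.34, 11.9 and 33.1 CPM (LFC 1.23 ± 0.24, adjusted p = 6.37e-04). Tf rose from 47.4, 117 and 404 to 47.4, 203 and 718 CPM (LFC 0.63 ± 0.13, adjusted p = 9.47e-04). Klk6 rose from 0.365, 4.55 and 19.2 to 1.25, 8.88 and 31.99 CPM (LFC 0.83 ± 0.23, adjusted p = 0.0329), a call that was lost without any 1 of the P23 replicates and without P45 replicate 2 or 3 (adjusted p = 0.0886 to 0.164). With counts summed per replicate number none of the 3 passed (Hapln2 LFC 0.84, adjusted p = 0.573, Tf LFC 0.66, adjusted p = 0.226, Klk6 LFC 0.56, adjusted p = 0.764). Hapln2 also did not pass in either region or layer alone (adjusted p = 0.0577 to 0.113), nor did Tf in the LEC or LDeep alone. The ranges of both ages overlapped for all 3 genes, and the region and layer groups differed within each age. Qdpr, which had fallen before, rose (LFC 0.53 ± 0.07, adjusted p = 1.25e-06). Mbp (LFC -0.36 ± 0.21, adjusted p = 0.415), Mobp (LFC -0.44 ± 0.28, adjusted p = 0.489), Mog (LFC -0.33 ± 0.18, adjusted p = 0.38), and Opalin (LFC 0.03 ± 0.13, adjusted p = 0.949) did not pass.

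**Figure D2:**
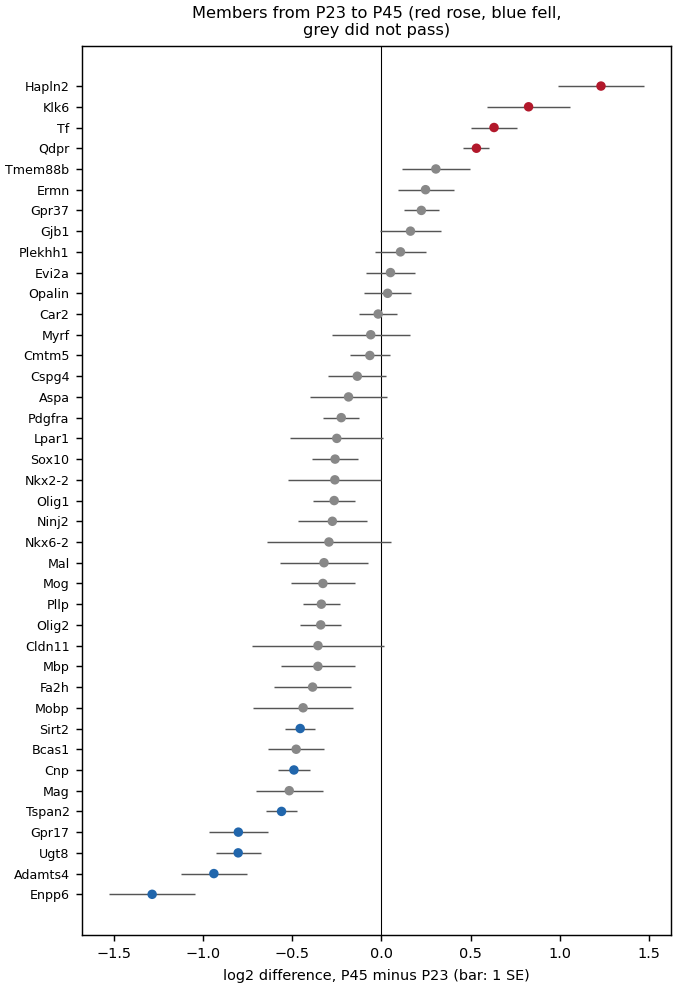
LFC of each of the 40 genes from P23 to P45, P45 minus P23, with a bar of 1 SE on each side, red for genes that rose, blue for genes that fell, and grey for the rest. Hapln2 (1.23) and Enpp6 (-1.29) lie at the ends, and 29 genes are grey.

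Ranked by the difference of P9 minus P45, the genes ran from Pdgfra (0.65 ± 0.09, SE), Olig2 (0.47 ± 0.11), and Cspg4 (0.38 ± 0.15). Further down came Sox10 (-0.29 ± 0.12), Bcas1 (-1.31 ± 0.15), Myrf (-1.59 ± 0.21), and Cnp (-1.61 ± 0.09). The far end held Mag (-3.62 ± 0.21), Mbp (-4.61 ± 0.22), Mog (-6.40 ± 0.26), and Mal (-9.04 ± 0.42), with Opalin and Mobp, which had groups at 0 counts at P9, last. Of 32 neighbouring pairs with an SE on both sides, 2 differed by more than the 95% interval of their difference, namely Sox10 from Sirt2 and Mag from Tf. The interval took the genes of a pair as independent, although they come from the same libraries. Neighbours are also the closest pairs of a ranking, so this count does not measure how firm the order is. The order is read here as coarse. As a share of the age with the highest mean, P9 stood at a median of 100% for the 2 precursor genes. It was 79.2% (range 2.14% to 100%) for the 6 transcription factors and 29.3% (8.78% to 65.8%) for the 3 premyelinating genes. For the 9 enzymes and secreted proteins it was 11.5% (0.768% to 88.8%), and for the 18 myelin and membrane genes 7.90% (0.139% to 65.9%). These ranges overlapped widely. The highest mean was at P9 for 3 genes (Pdgfra, Olig2, and Cspg4), at P23 for 27, and at P45 for 10. The LFC from P2 to P9, taken with its sign, was above that from P9 to P23 for 10 genes. They were Pdgfra, Cspg4, Olig1, Olig2, Sox10, Nkx2-2, Gpr17, Tspan2, Ninj2, and Qdpr.

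**Figure D3:**
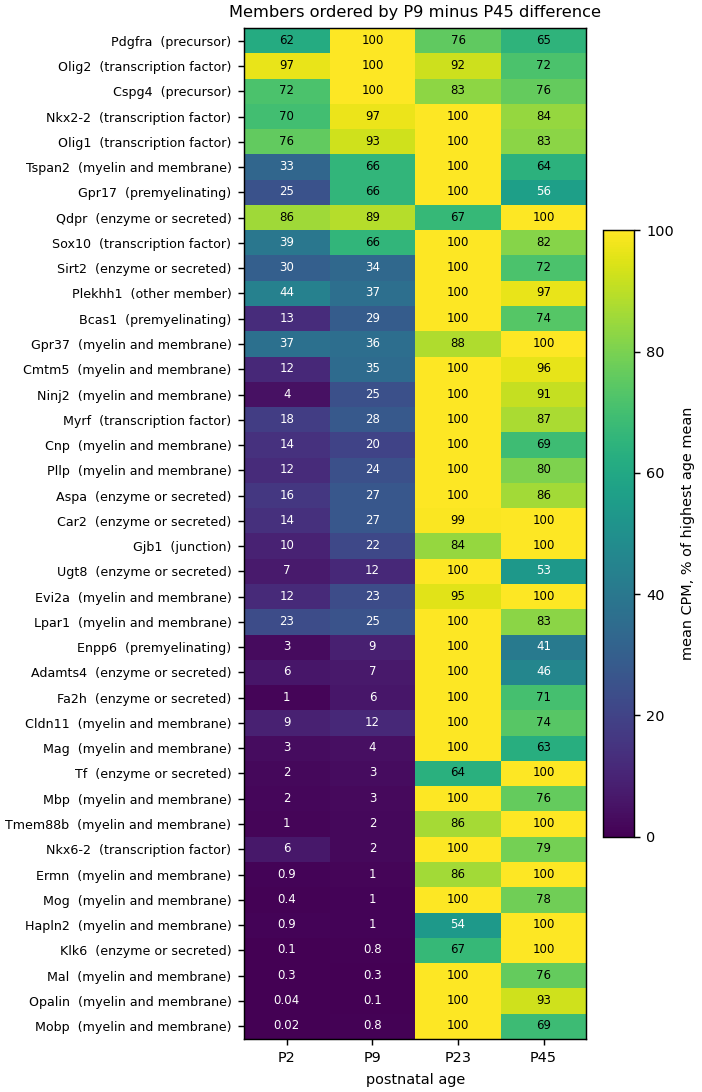
Mean CPM at each age as a percentage of the age with the highest mean, for the 40 genes ordered by their difference of P9 minus P45, with the stage in brackets. The 3 genes at the top are highest at P9, and the last 6 genes (Mog, Hapln2, Klk6, Mal, Opalin, and Mobp) are at 0.0230% to 1.00% of their highest age at P2 and P9.

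Between the layers, the members split by age. At P2, 6 of the 40 genes were higher and 5 lower in LII than in LDeep (all genes: 10.8% higher and 8.48% lower). The genes higher in LII were Cldn11, Lpar1, which encodes a receptor for lysophosphatidic acid, Aspa, an enzyme that splits N-acetylaspartate, Tf, Adamts4, and Pllp. The genes higher in LDeep were Olig2 (LFC -0.94 ± 0.13, adjusted p = 7.78e-07, LII minus LDeep), Bcas1 (LFC -0.77 ± 0.21, adjusted p = 0.00625), Olig1 (LFC -0.77 ± 0.14, adjusted p = 3.49e-05), Sox10 (LFC -0.69 ± 0.17, adjusted p = 0.00178), and Gpr17 (LFC -0.65 ± 0.22, adjusted p = 0.0267). Olig2 was at 14.2, 14.03, 19.4, 21.4 and 14.3 CPM in LEC LII and at 36.8, 31.9, 37.5, 57.9 and 43.6 CPM in LEC LDeep. It was at 43.9, 12.5, 27.9, 21.5 and 20 CPM in MEC LII and at 23.4, 34.8, 36.7, 50.1 and 43.5 CPM in MEC LDeep. The layers were apart in the LEC and overlapped in the MEC, where replicate 1 had the higher value in LII. In the MEC alone neither Olig2 (LFC -0.57, adjusted p = 0.118) nor Olig1 (LFC -0.50, adjusted p = 0.2115) passed. Bcas1 turned to LFC 0.0566 (adjusted p = 0.925) in the MEC alone, and it did not pass without P2 replicate 4 (LFC -0.50, adjusted p = 0.129) or 5 (LFC -0.66, adjusted p = 0.0517).

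Cldn11 at P2 was at 47.8, 40.96, 32.5, 20.5 and 31.7 CPM in LEC LII and at 0.561, 0.693, 1.799, 1.802 and 0.622 CPM in LEC LDeep. In the MEC it was at 1.200, 67.98, 1.14, 53.01 and 19.7 CPM in LII (replicates 1 to 5) and at 54.5, 0.383, 0.115, 0.226 and 0.487 CPM in LDeep. The LII libraries were high except for MEC replicates 1 and 3, and the LDeep libraries were low except for MEC replicate 1. The 5 meningeal markers were low in the same 2 LII libraries (17.5 and 32.97 CPM against 423 to 833 CPM in the other 3) and high in the same LDeep library (686 against 42.3 to 84.8 CPM), and their part in the result was not tested. With all libraries, the difference was LFC 3.12 ± 0.59, adjusted p = 8.33e-05. Without both libraries of MEC P2 replicate 1 it was larger (LFC 5.84, adjusted p = 7.83e-13), as was that of Lpar1 (LFC 2.86 ± 0.39, adjusted p = 2.73e-07 with all libraries, LFC 4.06, adjusted p = 3.99e-13 without). In the MEC libraries alone neither passed (Cldn11 1.31, adjusted p = 0.401, Lpar1 1.82, adjusted p = 0.0968), and in the LEC libraries alone both did (Cldn11 4.98, adjusted p = 1.39e-11, Lpar1 3.93, adjusted p = 9.73e-11). Aspa was at 8.51, 9.13, 9.897, 3.27 and 7.57 CPM in LEC LII and 0.674, 1.52, 0.5998, 1.93 and 1.71 CPM in LEC LDeep, with no overlap. With the libraries of both regions the Aspa difference was LFC 1.79 ± 0.34 (adjusted p = 8.10e-05). It did not pass in the MEC alone (LFC 1.01, adjusted p = 0.274).

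At P9, 7 genes were higher and 6 lower in LII (all genes: 16.7% and 16.2%). Calls in both directions depended on the library LEC LII P9 replicate 2, as given below. Lpar1 was at 34.8, 37.4, 28.5 and 24.1 CPM in LEC LII and 0.451, 2.26, 1.902 and 1.46 CPM in LEC LDeep. Lpar1 was at 37.2, 15.2, 22.8 and 10.9 CPM in MEC LII and 1.47, 2.08, 7.48 and 0.7200 CPM in MEC LDeep (LFC 3.57 ± 0.44, adjusted p = 1.08e-08). Cldn11 was at 57.02, 70.6, 33.4 and 38.7 CPM in LEC LII and 2.03, 3.95, 3.67 and 1.02 CPM in LEC LDeep (LFC 3.37 ± 0.61, adjusted p = 1.67e-05). LII was above LDeep without overlap for Lpar1 in both regions and for Cldn11 in the LEC. In the MEC alone the Cldn11 difference did not pass (LFC 2.57, adjusted p = 0.110). In MEC LII and LDeep Cldn11 overlapped (58.7, 39.4, 39.7 and 15.3 CPM against 3.07, 5.11, 15.8 and 1.23 CPM). The high LDeep library, replicate 3, also had the highest meningeal sum of MEC LDeep (261 CPM). Mal was near the counting limit at P9, and its difference (LFC 3.80 ± 1.34, adjusted p = 0.0243) did not pass without LEC LII P9 replicate 2 (LFC 2.65, adjusted p = 0.134). Aspa, Tf, Cmtm5, and Gpr37 were also higher in LII, Gpr37 no longer without that library (LFC 0.33, adjusted p = 0.0735).

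Of the premyelinating genes at P9, Enpp6 was at 0.331, 0, 0.118 and 0 CPM in MEC LII and 2.001, 1.598, 1.72 and 0.309 CPM in MEC LDeep. Enpp6 was at 0, 2.03, 0.315 and 0 CPM in LEC LII and 1.13, 1.598, 2.31 and 1.605 CPM in LEC LDeep (LFC -2.43 ± 0.52, adjusted p = 1.94e-04). In the LEC alone the Enpp6 difference did not pass (LFC -1.18, adjusted p = 0.231). Bcas1 was at 21.5, 27.4, 32.4 and 16.5 CPM in MEC LII and 70.96, 68.9, 66.8 and 23.9 CPM in MEC LDeep. Bcas1 was at 11.9, 39.3, 23.9 and 12.6 CPM in LEC LII and 37.01, 63.5, 61.8 and 34.9 CPM in LEC LDeep (LFC -1.18 ± 0.22, adjusted p = 1.97e-05). Most LDeep libraries were above the LII libraries, with MEC LDeep replicate 4 low for both genes and LEC LII replicate 2 high. Gpr17, Olig2, Sox10, and Tspan2 were lower in LII too. Gpr17 did not pass without replicate 1 (adjusted p = 0.109) or 2 (0.0602), or in the MEC alone (0.453). Mbp did not pass between layers with all libraries (LFC -0.17 ± 0.28, adjusted p = 0.675) and was lower in LII without LEC LII P9 replicate 2 (LFC -1.10, adjusted p = 1.50e-06). Without that library Ugt8 (LFC -0.61, adjusted p = 0.00249), Cnp (LFC -0.37, adjusted p = 0.0141), and Fa2h (LFC -1.13, adjusted p = 0.0358) then passed as lower in LII too.

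At P23, 28 genes were lower in LII and 1 was higher (all genes: 11% lower and 14.8% higher), and at P45 the counts were again 28 and 1 (all genes: 12% and 14.4%). At both ages 15 of 18 myelin and membrane genes were lower in LII, with a median LFC of -1.5 at P23 and -1.22 at P45. Mbp at P23 was at 1796, 1269 and 1601 CPM in MEC LII and 5806, 4413 and 6429.9 CPM in MEC LDeep. Mbp was at 479.6, 672 and 523 CPM in LEC LII and 1589.8, 1709 and 2622 CPM in LEC LDeep (LFC -1.83 ± 0.32, adjusted p = 1.41e-05). MEC LDeep was the highest group and LEC LII the lowest. Mobp was at 197, 147 and 196 CPM in MEC LII and 789, 610.0 and 928 CPM in MEC LDeep. Mobp was at 50.2, 68.4 and 55.5 CPM in LEC LII and 212, 230.1 and 430.3 CPM in LEC LDeep (LFC -2.22 ± 0.45, adjusted p = 1.64e-04). The 4 groups of Mobp did not overlap, in the order MEC LDeep, LEC LDeep, MEC LII, and LEC LII. Klk6 was at 3.07, 2.08 and 2.44 CPM in MEC LII and 19.2, 16.4 and 18.8 CPM in MEC LDeep. Klk6 was at 1.16, 1.46 and 0.365 CPM in LEC LII and 6.97, 6.02 and 10.9 CPM in LEC LDeep (LFC -2.89 ± 0.36, adjusted p = 8.68e-08). In each region every LDeep library was above every LII library for these 3 genes. Hapln2 showed the same separation in both regions (LFC -2.22 ± 0.38, adjusted p = 9.32e-06).

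At P45 the layer difference was -1.89 ± 0.29 for Klk6 (adjusted p = 2.51e-06), -1.74 ± 0.38 for Mobp (adjusted p = 4.54e-04), -1.65 ± 0.21 for Ermn, which encodes a cytoskeletal protein of late oligodendrocytes (adjusted p = 8.57e-09), and -1.55 ± 0.28 for Mbp (adjusted p = 1.46e-05). Every LDeep library was above every LII library for 36 of 40 genes in the MEC and 30 of 40 in the LEC at P23 (all genes: 18.5% and 16.7%), and for 28 and 17 of 40 at P45 (all genes: 10.7% and 5.69%).

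Pdgfra went the other way. At P45 it was at 182, 196, 170.4 and 134 CPM in MEC LII and 87.5, 115, 107 and 118 CPM in MEC LDeep. Pdgfra was at 195, 193, 208 and 203 CPM in LEC LII and 97.4, 112, 124 and 155 CPM in LEC LDeep (LFC 0.69 ± 0.13, adjusted p = 5.49e-05). The lowest LII library of each region was above the highest LDeep library. At P23 it was at 205, 247 and 203 CPM in MEC LII and 142, 139.5 and 119 CPM in MEC LDeep. Pdgfra was at 233, 177 and 193 CPM in LEC LII and 142, 133 and 148 CPM in LEC LDeep (LFC 0.61 ± 0.15, adjusted p = 0.00201). The same held at this age. The P23 difference did not pass in the MEC (adjusted p = 0.0595) or the LEC (0.0604) alone, and that of P45 passed in both (0.0417 and 7.79e-04). The other precursor gene, Cspg4, did not follow Pdgfra (LFC -0.04 ± 0.25, adjusted p = 0.932 at P23, LFC 0.17 ± 0.21, adjusted p = 0.614 at P45). Meningeal markers were also higher in LII at P45 (median 724 against 146 CPM). Their part in the difference of Pdgfra was not tested.

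The layer difference itself changed with age for 23 genes, tested as LII minus LDeep at P23 and P45 against the same at P2 and P9. For 22 genes it moved towards LDeep and for 1, Pdgfra (LFC 0.43 ± 0.14, adjusted p = 0.0367), towards LII (all genes: 3.97% and 4.83%). The call of Pdgfra was lost with limma voom (adjusted p = 0.0649), RLE scaling (0.0592), or no filter (0.0651), in the MEC (0.457) or the LEC (0.115) alone, without MEC P2 replicate 1 (0.0578), and in 11 of 16 fits without 1 replicate number (0.0577 to 0.187). The largest changes were those of Mal (LFC -5.40 ± 1.03, adjusted p = 2.01e-04), Cldn11 (LFC -3.70 ± 0.57, adjusted p = 4.93e-06), and Lpar1 (LFC -3.15 ± 0.40, adjusted p = 5.30e-08), and Mbp changed by -1.46 ± 0.28 (adjusted p = 2.36e-04). For Mal, MEC LII P2 replicate 1 held 164 of the 187 counts of P2. LEC LII P9 replicate 2 held 94 of the 130 Mal counts of P9. No fit left out both libraries. Cldn11 at P23 was at 194, 164 and 192 CPM in MEC LII and 443, 334 and 437 CPM in MEC LDeep, with LDeep above LII. Its layers overlapped in the LEC (135, 103 and 106 CPM against 110.2, 116 and 185 CPM), and the difference at P23 itself did not pass (LFC -0.70 ± 0.56, adjusted p = 0.408). With the 4 ages weighted equally, 5 genes were higher and 20 lower in LII (all genes: 23.5% and 30.5%). The ends of this range were Lpar1 (1.64 ± 0.20), Cldn11 (1.39 ± 0.28), and Aspa (1.04 ± 0.16) on the side of LII. On the side of LDeep they were Ermn (-1.01 ± 0.21), Fa2h (-1.06 ± 0.26), and Enpp6 (-1.35 ± 0.31). Fa2h did not pass without P2 replicate 4 (LFC -0.50, adjusted p = 0.907), and in the MEC alone neither did Fa2h (LFC -0.63, adjusted p = 0.171), Cldn11 (LFC 0.53, adjusted p = 0.416), nor Aspa (LFC 0.56, adjusted p = 0.0956).

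**Figure D4:**
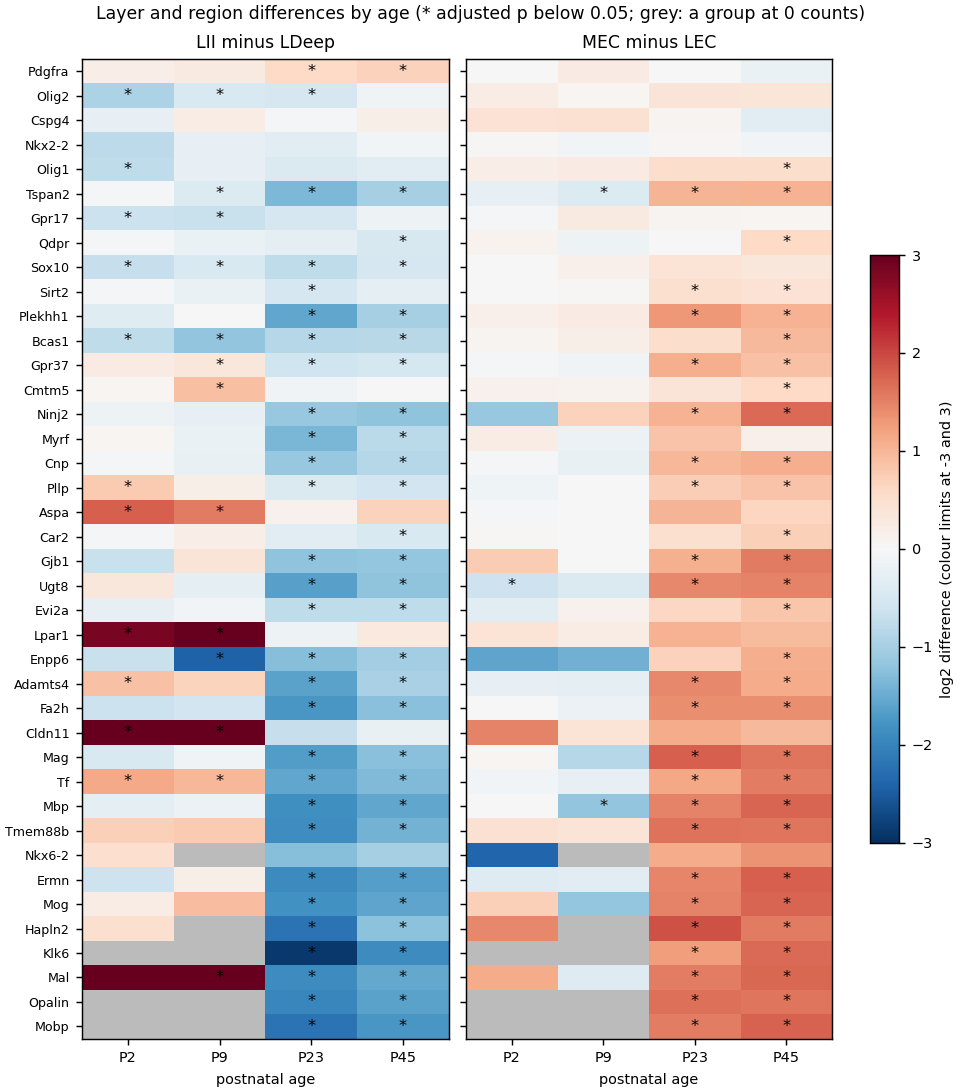
LFC of each gene at each age between layers (left, LII minus LDeep) and between regions (right, MEC minus LEC), genes ordered as in the onset plot, with colour limits at -3 and 3, a star for an adjusted p below 0.05, and grey where a group had 0 counts. Blue on the left and red on the right fill most of the P23 and P45 columns, with 28 and 28 genes lower in LII and 22 and 29 higher in the MEC, and few stars stand in the columns of P2 and P9 on the right.

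Between the regions, 3 calls were made at the young ages. At P2, 1 gene passed (Ugt8, LFC -0.63 ± 0.17, adjusted p = 0.0349, MEC minus LEC). At P9, 2 passed (Tspan2, LFC -0.42 ± 0.11, adjusted p = 0.0191, and Mbp, LFC -1.18 ± 0.28, adjusted p = 0.00597). All 3 were lower in the MEC (all genes in either direction: 2.67% and 3.88%). Ugt8 was at 11.7, 9.61, 7.86, 8.56 and 8.68 CPM in MEC LII and 13.7, 11.8, 15.8, 12.6 and 16.02 CPM in LEC LII, without overlap. The difference of Mbp was lost without LEC LII P9 replicate 2 (LFC -0.25, adjusted p = 0.654). Ugt8 did not pass with limma voom (adjusted p = 0.12), in LII (0.162) or LDeep (0.265) alone, or without replicate 3, 4, or 5 (0.113 to 0.203). Tspan2 did not pass without replicate 1 (adjusted p = 0.429) or 2 (0.111). With other methods or 1 replicate number left out, 0 to 3 genes passed at each of these ages.

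At P23, 22 genes were higher in the MEC (all genes: 2.01%) and at P45, 29 (all genes: 4.78%), and 0 were lower at either age. Without replicate 1 the number at P23 was 11, and without replicate 3 it was 13. Hapln2 at P23 was at 3.77, 4.03 and 5.53 CPM in MEC LII and 0.829, 1.62 and 0.7297 CPM in LEC LII. Hapln2 was at 21.5, 14.3 and 21.4 CPM in MEC LDeep and 4.65, 5.31 and 6.48 CPM in LEC LDeep (LFC 1.92 ± 0.38, adjusted p = 8.44e-04). Within each layer the MEC libraries of Hapln2 lay above those of the LEC. The call was lost without replicate 1 (adjusted p = 0.0539) or 3 (0.0502), and in LII alone (0.1215). Mag was at 153, 118 and 131 CPM in MEC LII and 38.6, 44.1 and 30.5 CPM in LEC LII. Mag was at 488, 328 and 420.4 CPM in MEC LDeep and 110.3, 134 and 126 CPM in LEC LDeep (LFC 1.78 ± 0.29, adjusted p = 4.29e-05). MEC LII of Mag reached the level of LEC LDeep. In LII alone the region difference of Mag did not pass (adjusted p = 0.0637). Opalin was at 28.05, 22.8 and 24.05 CPM in MEC LII and 7.29, 9.56 and 7.297 CPM in LEC LII. Opalin was at 108, 75.3 and 111 CPM in MEC LDeep and 24.9, 26.7 and 42.00 CPM in LEC LDeep (LFC 1.64 ± 0.20, adjusted p = 1.66e-06). In both layers every MEC library was above every LEC library for these 3 genes.

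At P45 Mbp was at 1373, 1947, 1647 and 1400.0 CPM in MEC LII and 362, 659.6, 338 and 253 CPM in LEC LII. Mbp was at 4347, 3817, 5048 and 2642 CPM in MEC LDeep and 1566, 1670.1, 1309.8 and 1011 CPM in LEC LDeep (LFC 1.75 ± 0.28, adjusted p = 7.96e-06). MEC LII and LEC LDeep of Mbp overlapped, with MEC LDeep above and LEC LII below both. Ermn was at 30.5, 35.4, 26.8 and 32.1 CPM in MEC LII and 3.03, 9.500, 6.997 and 7.34 CPM in LEC LII. Ermn was at 72.99, 83.7, 89.5 and 51.7 CPM in MEC LDeep and 30.6, 37.7, 27.9 and 16.7 CPM in LEC LDeep (LFC 1.79 ± 0.21, adjusted p = 5.57e-09). The groups of Ermn stood in the same order. Mobp was at 165, 232, 180.4 and 162 CPM in MEC LII and 34.6, 74.1, 37.4 and 25.8 CPM in LEC LII. Mobp was at 536, 465, 649.7 and 285 CPM in MEC LDeep and 203, 212, 174 and 139 CPM in LEC LDeep (LFC 1.76 ± 0.38, adjusted p = 0.00137). The MEC was above the LEC without overlap for these genes in both layers, although Mobp did not pass DESeq2 (adjusted p = 0.145), nor did its layer difference (0.0513 at P23, 0.0844 at P45). With edgeR Mobp did not pass between regions in LII alone (adjusted p = 0.0938). Its layer difference did not pass in the LEC alone (0.0737 at P23, 0.0634 at P45). In LII every MEC library was above every LEC library for 29 of 40 genes at P23 and 27 at P45 (all genes: 14.6% and 6.54%), and in LDeep for 35 and 30 (all genes: 8.44% and 3.95%).

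Of the 11 members that mark the precursor, the transcription factors, and the premyelinating cell, 0 passed between regions at P23 and 3 at P45. These 3 were Olig1 (LFC 0.53 ± 0.15, adjusted p = 0.0176), Bcas1 (LFC 0.98 ± 0.21, adjusted p = 7.24e-04), and Enpp6 (LFC 1.08 ± 0.34, adjusted p = 0.0308). The region difference of Pdgfra was 0.02 ± 0.15 at P23 (adjusted p = 0.975) and -0.21 ± 0.13 at P45 (adjusted p = 0.39). That of Cspg4 was 0.07 ± 0.25 (adjusted p = 0.932) and -0.32 ± 0.22 (adjusted p = 0.413). The region difference changed with age for 19 genes, all towards the MEC at the older ages (all genes: 2.08%), among them Enpp6 (LFC 2.39 ± 0.52, adjusted p = 0.00278) and Mbp (LFC 2.22 ± 0.28, adjusted p = 3.01e-07). Nkx6-2 passed this test as well, with 0 counts in all MEC LII libraries of P9. Enpp6 did not pass without P2 replicate 5 (adjusted p = 0.0773), without P9 replicate 2 (0.0607), or in LII alone (0.27). Nkx6-2 did not pass with limma voom (adjusted p = 0.128), in LII (0.232) or LDeep (0.281) alone, without P2 replicate 3 (0.147), or without LEC LII P9 replicate 2 (0.242). With the 4 ages weighted equally, 24 genes were higher in the MEC and 0 lower (all genes: 8.87%). The largest differences were those of Tmem88b (LFC 1.02 ± 0.28, adjusted p = 0.0071), Cldn11 (LFC 1.00 ± 0.29, adjusted p = 0.0099), and Gjb1 (LFC 0.84 ± 0.13, adjusted p = 2.00e-06), which encodes the connexin of gap junctions within the sheath. Tmem88b did not pass without P2 replicate 3 (LFC 0.84, adjusted p = 0.982) or in LDeep alone (LFC 0.75, adjusted p = 0.388). Cldn11 did not pass without MEC P2 replicate 1 (LFC 0.40, adjusted p = 0.381), without P9 replicate 3 (LFC 0.86, adjusted p = 0.0574), with limma voom (LFC 0.30, adjusted p = 0.541), or in LII alone (LFC 0.13, adjusted p = 0.837).

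A change of the layer difference between regions was not detected among the members. Tested as LII minus LDeep in the MEC against the same in the LEC over the 4 ages, 0 of 40 genes passed edgeR, where 1.25% of all genes did, 6 members were at an unadjusted p below 0.05, and 1 passed DESeq2. The members nearest to passing were Lpar1 (LFC -1.32 ± 0.40, adjusted p = 0.0857) and Cldn11 (LFC -1.74 ± 0.57, adjusted p = 0.128), and for Mbp the estimate was -0.29 ± 0.28 (adjusted p = 0.719). At the older ages the groups fell into 1 order for most members. MEC LDeep had the highest and LEC LII the lowest mean CPM for 3 of 40 genes at P2 (all genes: 16.3%), 6 at P9 (15.2%), 32 at P23 (12.4%), and 32 at P45 (17.1%). The genes outside this order at both older ages were Pdgfra, Cspg4, Nkx2-2, Cmtm5, Lpar1, and Aspa. At P23 Gpr17 and Qdpr, and at P45 Myrf and Cldn11, were outside it too. The LEC LDeep mean of Myrf at P45 includes replicate 4 at 73.98 CPM, against 11.9 to 13.84 CPM in the others of that group.

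Across the 40 genes, those with a larger difference between layers also had a larger difference between regions. The correlation of LII minus LDeep with MEC minus LEC was r = -0.814 (Spearman rho = -0.858) at P23 and r = -0.853 (rho = -0.910) at P45. Both axes come from the same libraries, and genes of 1 cell type are not independent, so these values are a description of these libraries.

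**Figure D5:**
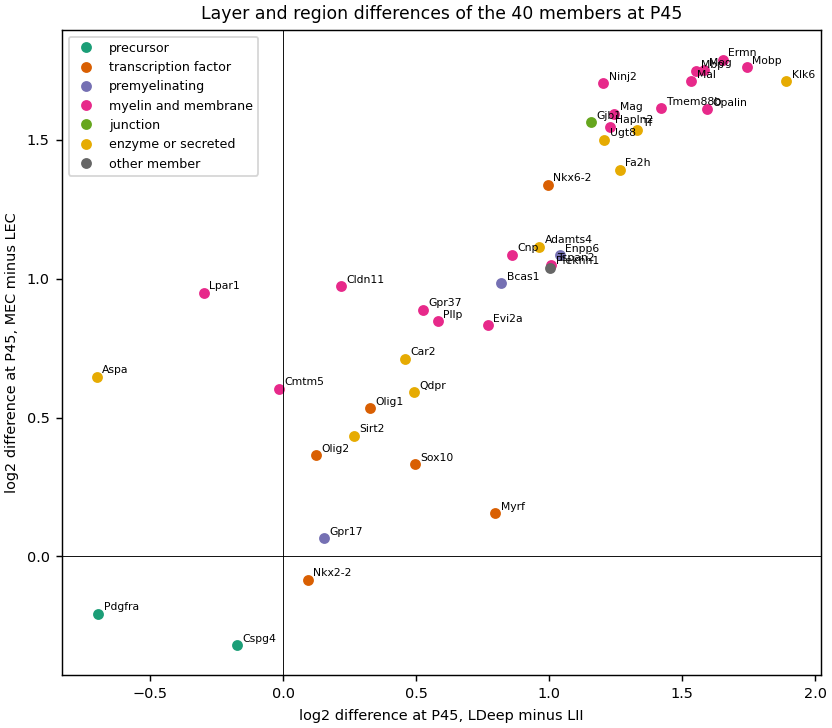
LFC at P45 between layers (x axis, LDeep minus LII) and between regions (y axis, MEC minus LEC) for the 40 genes, coloured by stage. Pdgfra and Cspg4 lie at the lower left, and Mbp, Mobp, Ermn, and Klk6 at the upper right, with region differences of 1.71 to 1.79.

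Other genes known from the lineage, on lists of 34 mature and 20 precursor and premyelinating genes, were tested in 28 and 15 cases. Of the 28 mature genes, 13 rose and 9 fell from P2 to P9 (median LFC 0.12). Of the 15 precursor and premyelinating genes, 6 rose and 4 fell in this step (median LFC 0.10). Among the 40 members 22 rose and 0 fell, and of all genes 31.6% rose and 31.8% fell. From P9 to P23, where 32.5% of all genes rose and 32.1% fell, 24 of the 28 mature genes rose and 2 fell (median LFC 1.14). Among them were Galnt6 (4.08 ± 0.31), a glycosyltransferase, and S1pr5 (3.61 ± 0.20), a sphingosine phosphate receptor, which rose most, and Prr18 (-0.55 ± 0.21) and Zdhhc9 (-0.54 ± 0.08), which fell. Of the 15 precursor genes 8 rose and 4 fell, from Bmp4 (1.53 ± 0.33), a growth factor, to Sox4 (-1.69 ± 0.09), a transcription factor also of young neurons. Between layers 4 mature genes were higher and 12 lower in LII at P23 (all genes: 14.8% and 11%), and 3 and 9 at P45 (all genes: 14.4% and 12%). Between regions 10 of them were higher in the MEC at P23 and 13 at P45, and 0 were lower (all genes higher: 2.01% and 4.78%). The precursor list had 0 genes that differed between regions at these ages, and in LII 1 was higher at P23 and 6 at P45. Itgb4, on the mature list, was 6.27 ± 0.69 higher in LII at P23 and has roles in epithelia as well.

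Markers of other cell types moved with the layer comparison. Meningeal fibroblast markers (5 of 5 found) summed to 234 to 919 CPM (median 666) in LII and 54.1 to 261 CPM (median 121) in LDeep at P9, and to 178 to 1105 CPM (median 724) and 68.02 to 227 CPM (median 146) at P45. Astrocyte markers (5 of 5) summed to 3248 to 4191 CPM (median 3483) and 1869 to 2469 CPM (median 1998) at P45, and neuron markers (5 of 5) to 3513 to 5088 CPM (median 4229) and 4737 to 5252 CPM (median 4985). LII lay above LDeep without overlap for astrocyte markers at P45 and overlapped for the neuron markers. Endothelial markers (4 of 5) and red blood cell markers (5 of 7) were also higher in LII at P23 (277 to 327 CPM (median 303) against 149 to 213 CPM (median 195) for the former, and 2805 to 4581 CPM (median 3887) against 1716 to 2672 CPM (median 1997)). Microglia markers (5 of 5) overlapped (282 to 365 CPM (median 342) against 232 to 317 CPM (median 277)). Choroid plexus markers (5 of 5) were low but higher in LII at P23 without overlap (10.04 to 19.1 CPM (median 15.7) against 0.141 to 0.820 CPM (median 0.258)). The part of these cells in the layer differences was not tested.

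Between regions these sums overlapped, and 0 of the markers of meningeal fibroblasts, astrocytes, microglia, and endothelium passed at P23 or P45. At P45 they were 107 to 825 CPM (median 208) in the MEC and 68.02 to 1105 CPM (median 319) in the LEC for meningeal markers. They were 1869 to 3909 CPM (median 2859) and 1976 to 4191 CPM (median 2791) for astrocytes, and 4139 to 5252 CPM (median 4919) and 3513 to 5064 CPM (median 4685) for neurons. Choroid plexus markers summed to 0 to 46.4 CPM in the 64 libraries, with Otx2 at 0 in 62 libraries. Single markers of other cells were higher in the MEC. They were the neuronal gene Rbfox3 at P23 (0.37 ± 0.11), and Cdh19 of Schwann cells, the myelinating cells of peripheral nerves (1.5 ± 0.37), and Ttr of the choroid plexus (2.21 ± 0.63) at P45. Their part in the region differences was not tested.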

How the data were processed

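RNA of the 64 samples was sequenced as stranded, paired-end total RNA after ribosomal depletion. Per the study's methods and the submitters' processing notes, the authors demultiplexed with bcl2fastq 1.8.4, trimmed with Trimmomatic 0.33, aligned to rn6 with STAR 2.4.0, and counted read pairs per gene by strand with featureCounts (Subread 1.4.6-p1). The deposited values are raw counts per gene. The counts were used as deposited, and no library was dropped or imputed. Replicates are those of the labels, which number them without naming animals or litters. The study calls its replicates biological, and p-values measure the spread between these samples. Of 100 pairs of replicates within groups, 0 held identical counts.

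Genes were filtered with filterByExpr (12521 kept), scaled by TMM, and fitted with 16 group means over all 64 samples in edgeR 4.0.16 (R 4.3.3), quasi-likelihood test, with Benjamini-Hochberg adjustment over all genes kept and a threshold of 0.05. CPM and RPKM use the TMM-scaled library sizes, the latter with summed exon length. Where a group had 0 counts, no SE is given and ratios of mean CPM replace the fitted change. The study's own test, limma voom with TMM and quantile normalization (limma 3.58.1), was an alternative, beside DESeq2 1.42.0, RLE scaling, no filter, replicate blocks, counts summed per replicate number, single regions or layers, and each replicate number left out. Leaving out LEC LII P9 replicate 2, or both libraries of MEC P2 replicate 1, was chosen after seeing the data.

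The 40 genes, the marker lists, and the motifs were chosen with earlier results of these data known. Values are given for Pdgfra, Cspg4, Olig2, Sox10, Myrf, Gpr17, Enpp6, Bcas1, Mbp, Mog, Mobp, Opalin, Klk6, and Adamts4 and for the 3 members of largest change in each direction among those that passed in a comparison. Mag, Cnp, Cldn11, Ugt8, and other members named beyond this rule were chosen after their values were seen. Mog overlaps Zfp57, and Plekhh1 overlaps Pigh, on opposite strands. The fit was tested on simulated data.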

Additional observations from a re-analysis of the deposited data

Results flagged for a closer look

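Single libraries stood far from the others of their group in 8 of 141 sets of values tested, and chance alone flags about 1 in 20 groups. Olig2 was at 37.13 CPM in MEC LII P9 replicate 3, against 24.99 to 26.44 CPM in the others. Sox10 was at 28.71 CPM in LEC LDeep P2 replicate 4, against 16.05 to 18.2 CPM. Myrf was at 13.53 CPM in MEC LDeep P2 replicate 4, against 3.409 to 4.158 CPM, and at 73.98 CPM in LEC LDeep P45 replicate 4, against 11.9 to 13.84 CPM. Enpp6 (0.3086 against 1.598 to 2.001 CPM) and Bcas1 (23.86 against 66.78 to 70.96 CPM) were both low in MEC LDeep P9 replicate 4. Mbp (348.3 against 27.88 to 34.64 CPM) and Mobp (39.51 against 0 to 0.181 CPM) were both high in LEC LII P9 replicate 2.

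The difference between layers changed with age, by a test of the change itself, for 23 members. Among them Pdgfra changed by 0.4251 on the log2 scale (edgeR, adjusted p = 0.037, lost in 17 of the fits under other settings, with adjusted p = 0.0577 to 0.457), Mal by -5.396, Cldn11 by -3.704, and Lpar1 by -3.146. Most Mal counts of P2 and of P9 lay in 1 library of each age. The difference between regions changed with age for 19 members, among them Enpp6 by 2.395 (adjusted p = 0.0607 to 0.27 in the 3 fits that lost the call) and Mbp by 2.215. The fitted change of Nkx6-2 was 3.219 (adjusted p = 0.021), which depends on the prior count because a group of this gene was at 0 counts, and the call was lost in 6 of the fits under other settings (adjusted p = 0.128 to 0.9999).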

How the results depend on the processing

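Of the counts of members that passed, 374 recomputed values stayed within 1.5 times the reported ones and 33 did not. The former include fits that left out samples of an age outside the comparison, where little could change. From P23 to P45 (11 reported) 5 passed with counts summed per replicate number, 6 in the MEC alone, 6 in the LEC alone, and 2 in LII alone. In the MEC alone 1 passed between layers at P2 (11 reported), 7 at P9 (13), and 13 when the layer difference was compared between ages (23), and in the LEC alone 18 passed at P23 (29) and 15 for that comparison. In LII alone 12 passed between regions over all ages (24), 9 at P23 (22), 18 at P45 (29), 0 at P2 (1), and 10 for the change with age (19), and in LDeep alone 0 at P2, 0 at P9 (2), and 9 for the change with age. With limma voom 0 passed between regions at P2 and 1 at P9, with DESeq2 3 at P2, and without LEC LII P9 replicate 2 1 at P9. DESeq2 gave 1 member for the layer difference between regions (0 reported). The cause of these shifts was not tested, but fits of 1 region or layer hold fewer samples.

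With 1 replicate number left out at a time, the counts were 18 to 24 from P2 to P9, 36 in each case from P9 to P23, and 10 to 14 from P23 to P45. Between layers they were 25 to 28 over all ages, and 9 to 13, 9 to 15, 25 to 32, and 26 to 32 at P2, P9, P23, and P45. Between regions they were 19 to 26, and 0 to 1, 0 to 3, 11 to 26, and 26 to 33. They were 18 to 25, 0 to 1, and 15 to 22 for the layer difference compared between ages and between regions and for the region difference compared between ages. For 59 results of single genes, the fits with samples left out included those chosen after seeing the data. Of their values, 1019 kept their direction and their side of the threshold and 43 no longer passed. Among the other alternatives these numbers were 394 and 60. Many fits left out samples of an age outside the comparison, where the compared group means could hardly move. The 1019 values therefore do not measure how firm the results are. Bcas1 between layers at P2 turned to 0.0566 in the MEC alone (adjusted p = 0.925).

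Samples with the same replicate number correlated with a mean r of 0.126 to 0.143, against -0.0452 to -0.0391 for different numbers, and 42 of 64 correlated best with their own number. The study ties such numbers to animals for its miRNA samples of the MEC, and the labels of these libraries do not, so the samples were treated as sharing a number, not as paired. With a random replicate block, 21, 36, and 13 members passed in the 3 age steps. With a fixed replicate block, 31, 13, 13, 31, and 31 passed between layers (all ages, P2, P9, P23, P45), 27, 2, 2, 26, and 30 between regions, and 25, 1, and 22 for the same 3 comparisons, and every single-gene result recomputed with a block kept its call. Over all genes, 482 passed from P23 to P45, against 60 with summed counts, 76 in the MEC, 80 in LII, 116 in LDeep, 224 in the LEC, and 248 with the random block. Below about 1 CPM, where 1 count is 0.0874 to 0.257 CPM, depth limited the comparisons at P2 and P9.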
